A study of Mus musculus with 33 samples.

Results

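After loss of Uhrf1, 3744 of the 10632 Nanog binding sites of mouse embryonic stem cells (mESC) lay where none of 3 compared factor lists held a summit. A site was called Nanog-only when its summit, the base of highest read overlap in a called peak, had no Nanog or Oct4 summit of WT mESC and no Sox2 summit of Uhrf1 KO mESC within 100 bp. These sites made up 35.2% (95% Wilson interval 34.3 to 36.1) of the KO Nanog list, a share that the rule itself fixes, since members were chosen by the measured summit positions in these 4 lists. The other 6888 sites fell into 3 classes. There were 1947 kept sites with a WT Nanog summit. A further 2659 former Oct4 sites had a WT Oct4 but no WT Nanog summit, and 2282 sites had only a KO Sox2 summit.

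The libraries came from mESC, either WT (E14, a mouse embryonic stem cell line) or lacking Uhrf1 (Uhrf1 KO), and from embryoid bodies (EB) of both genotypes. The mESC were grown undifferentiated with leukemia inhibitory factor on gelatin or feeder fibroblasts, and the EB were taken after 1, 2 or 3 weeks of differentiation. Chromatin was immunoprecipitated for H3K4me3 and H3K27me3 in all of these cells, for H3K9me3, Nanog, Sox2 and Oct4 in mESC of both genotypes, and for Uhrf1 in WT mESC. Each of the 25 lists came from 1 library, so no value below has a replicate check and intervals cover counting error over sites only. Whether the KO line derived from E14, and whether it was a single clone, was not given in the sources used here. Starts of 5 of 6 pluripotency genes (Pou5f1, Sox2, Nanog, Zfp42 and Klf4, but not Esrrb) lay in H3K4me3 domains of both genotypes. The WT mESC H3K27me3 list also covered the starts of Pou5f1, Sox2, Klf4 and Esrrb, but not those of Nanog and Zfp42.

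Nanog is a homeodomain transcription factor that, with Oct4 and Sox2, holds mouse embryonic stem cells in the undifferentiated state, and the 3 factors often occupy the same enhancers. Uhrf1 binds hemimethylated DNA and H3K9me3 and brings the maintenance methyltransferase Dnmt1 to replicating chromatin. H3K4me3 marks active or poised promoters, H3K27me3 the targets of Polycomb, and H3K9me3 heterochromatin and silenced repeats.

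The sequences below span 50 bases on either side of the summit of sites that the results turn on, read from the NCBIM37 (mm9) assembly on its plus strand. The first 6 are the tallest Nanog-only sites with the Nanog-type core CCATTA in this span whose central 31 bases occur once in the genome, leaving out UTRs and places crowded with Nanog summits, and they were chosen after their values were seen. Capitals mark CCATTA, the Sox-type letters CATTGT or CTTTGT, the octamer ATGCAAAT and the Esrrb-type element AAGGTCA on either strand. Matches of different patterns were searched separately and may overlap, and a match is a description of letters, not a shown binding site.
Spred2 site, chr11:19647265-19647365: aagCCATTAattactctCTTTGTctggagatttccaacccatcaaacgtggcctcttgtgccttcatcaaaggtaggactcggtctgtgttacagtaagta
Atp6v1c1 site, chr15:38640361-38640461: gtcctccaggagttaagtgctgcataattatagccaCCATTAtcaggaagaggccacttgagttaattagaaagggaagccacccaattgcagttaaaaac
Gng2 site, chr14:20809977-20810077: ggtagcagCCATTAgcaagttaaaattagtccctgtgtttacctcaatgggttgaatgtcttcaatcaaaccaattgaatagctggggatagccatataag
Fam13c site, chr10:69822897-69822997: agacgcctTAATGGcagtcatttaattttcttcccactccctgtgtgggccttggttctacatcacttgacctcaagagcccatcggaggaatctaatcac
Alk site, chr17:72906517-72906617: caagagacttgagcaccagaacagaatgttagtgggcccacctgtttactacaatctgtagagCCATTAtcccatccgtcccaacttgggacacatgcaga
Gad1 site, chr2:70406806-70406906: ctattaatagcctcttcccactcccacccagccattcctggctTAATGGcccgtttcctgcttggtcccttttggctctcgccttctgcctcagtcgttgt
The next 5 stand for other settings described below: the tallest site of all, another tall site in repeated sequence, the promoter site of Dppa5a, the tallest site in KO but not WT H3K4me3, and a single-copy site in a Uhrf1 window.
Gm10800 site, chr2:98507267-98507367: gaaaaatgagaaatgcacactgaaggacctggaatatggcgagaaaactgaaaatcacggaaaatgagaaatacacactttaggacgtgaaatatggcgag
2210408I21Rik site, chr13:77578201-77578301: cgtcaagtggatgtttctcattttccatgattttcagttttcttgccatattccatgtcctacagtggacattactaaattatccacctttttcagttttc
Dppa5a site, chr9:78216648-78216748: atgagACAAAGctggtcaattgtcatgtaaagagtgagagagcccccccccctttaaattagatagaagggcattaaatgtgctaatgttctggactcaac
Ezr site, chr17:6964350-6964450: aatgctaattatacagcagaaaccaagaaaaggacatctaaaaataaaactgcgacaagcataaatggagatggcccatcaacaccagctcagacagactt
Nfib site, chr4:81764282-81764382: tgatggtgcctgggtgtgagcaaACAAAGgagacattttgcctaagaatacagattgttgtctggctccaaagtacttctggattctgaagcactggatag

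Sites on chromosome 18 were not considered for these 6 sites with the Nanog-type core. The Spred2 site (height 45 reads) was intergenic, 177 kb upstream of Spred2, which encodes an inhibitor of Ras signalling, and it alone among them also held a Sox-type match. The Atp6v1c1 site (37 reads) lay 48.8 kb downstream of the start of a proton pump subunit gene and 192 kb from the nearest excluding summit. The Gng2 site (35 reads) lay 13.2 kb upstream of a G protein gamma subunit gene. The Fam13c site (31 reads) had WT Oct4 and KO Sox2 summits at 602 and 580 bp. The Alk site (31 reads) was in an intron of this receptor tyrosine kinase gene, 164 bp from a KO Sox2 summit. The Gad1 site (27 reads) was in an intron of the gene of a GABA-synthesizing enzyme, in WT domains of both H3K4me3 and H3K27me3. The Spred2, Fam13c and Alk sites thus stood within 1000 bp of a summit that the rule excluded at 100 bp, and the other 3 sites did not.

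Nanog-only sites were the lowest of the KO Nanog list. Their median height was 10 reads (25th to 75th percentile 8 to 13), against 12 for sites with KO Sox2, 13 for former Oct4 sites and 27 for kept sites. The Nanog-only share fell from 58.2% of sites with 5 to 9 reads to 6.83% of sites with 22 to 228 reads. Heights come from the list that the members were selected on and are given as a description. The KO Nanog list began at 5 reads and the WT Nanog list, with 2390 sites, at 9. Of the Nanog-only sites, 2621 (70.01%) reached that WT minimum, and counting only KO sites at or above it the Nanog-only share was 29.9%. The study lists fewer mapped reads for the KO than for the WT Nanog library, and what part this difference had in the number of new sites was not tested.

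**Figure D1:**
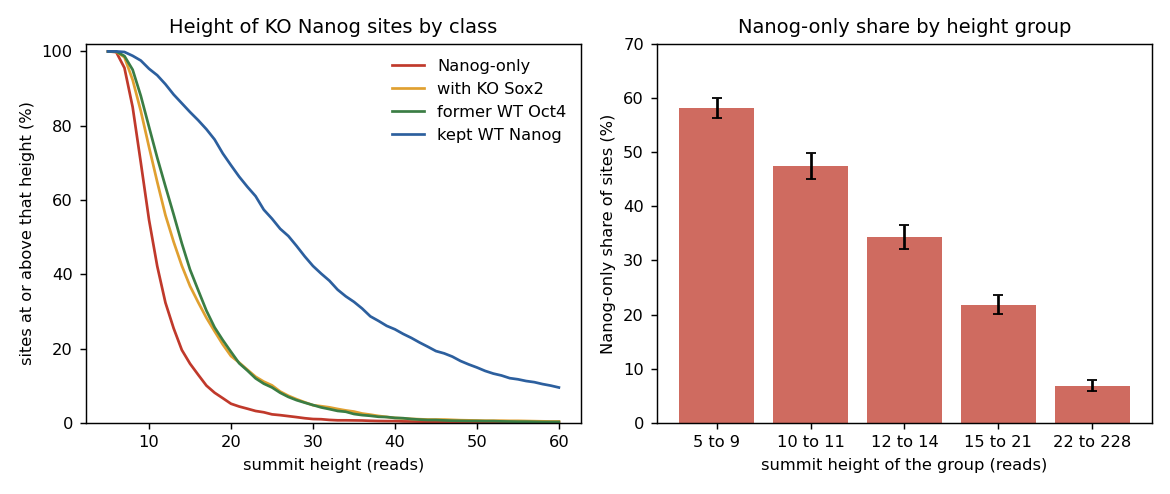
Left, the share of each class of KO Nanog sites (percent) at or above each summit height (reads); right, the Nanog-only share of all KO Nanog sites in 5 groups of summit height, with 95% Wilson intervals. The Nanog-only curve falls first, from a median of 10 reads, and the share drops from 58.2% to 6.83% across the groups.

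Some Nanog-only sites stood close to a summit that the rule excluded. The nearest of the 3 kinds of excluding summit lay over 100 and up to 200 bp away at 472 sites (12.6%), over 200 and up to 1000 bp at 544 (14.5%) and over 10 kb at 1880 (50.2%). Just inside the limit, 105 sites at over 100 and up to 110 bp had a median height of 10 reads, and just outside it, 131 sites at 91 to 100 bp had 11. Within 1000 bp, KO Sox2 was the most frequent neighbour (821 sites), followed by WT Oct4 (496) and WT Nanog (218). With a distance of 1000 bp in the rule, 25.7% of KO Nanog sites remained Nanog-only.

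The 2 other factor lists rarely held a summit at Nanog-only sites. Summits of both lists were most frequent at the kept sites, which the rule leaves out. Low shares therefore follow in part from the rule and are given as a description. WT Sox2 summits lay within 100 bp of 58 Nanog-only sites (1.55%, interval 1.20 to 2.00), whereas 22.3% of all KO Nanog sites had one. The share was 8.59% at sites with KO Sox2, 32.1% at former Oct4 sites and 64.8% at kept sites. The KO Oct4 list, which holds 576 sites, met 39 Nanog-only sites (1.04%), against 2.93% of all KO Nanog sites and 11.1% of kept sites. Of these 39 sites, 29 lay in crowded places (10 kb bins with 5 or more KO Nanog summits) or on unplaced sequence.

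Nanog-only sites were spread over the genome, and few lay at promoters. Of the 3697 on assembled chromosomes, 54.2% (interval 52.6 to 55.8) were intergenic and 43.1% (41.5 to 44.7) were in introns (39.7% of all KO Nanog sites), while 62.5% and 34.6% of the genome fall in these features. Among all KO Nanog sites 57.9% were intergenic. The intergenic share differed by -8.39 percentage points (95% Newcombe interval -10.8 to -5.94) from that of former Oct4 sites and by -7.29 points (-9.97 to -4.57) from that of kept sites. It differed by less than counting error from that at sites with KO Sox2 (55.2%). UTRs held 63 Nanog-only sites (1.70%, against 1.73% of all KO Nanog sites) and coding exons 36 (0.974%, against 0.701%). The median distance to the nearest start of a protein-coding gene was 36.2 kb.

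Starts of protein-coding genes lay within 2 kb of 197 Nanog-only sites (5.33%, interval 4.65 to 6.10), against 5.88% of all KO Nanog sites. The difference from the other KO Nanog sites, at 6.18%, was -0.855 points, and its interval (-1.76 to 0.0903) held 0. In 3 alternative settings the interval did not hold 0. These were single-copy sites (-1.29 points, -2.27 to -0.274), all annotated genes (-1.37, -2.47 to -0.223) and 1000 bp in the rule (-2.37, -3.26 to -1.40). The other alternatives with an interval held 0. Of these 197 sites, 139 (70.6%, interval 63.8 to 76.5) lay in KO H3K4me3 domains, against 75.4% of all KO Nanog sites this close to a start. The share was 84.6% at sites with KO Sox2, 72.6% at former Oct4 sites and 77.4% at kept sites. After the sites of Gm10800 and Gm10801 described below, the tallest were at Bphl (32 reads, 1.11 kb inside the gene, chr13:34130611), Mast4, a microtubule-associated kinase gene (28 reads, 1.59 kb upstream, chr13:104126167), and Dppa5a, which encodes an RNA-binding protein of pluripotent cells (24 reads, 0.714 kb upstream, chr9:78216698). The sites at Bphl, Mast4 and Dppa5a lay in H3K4me3 domains of both genotypes. The Mast4 site lay 163 bp from a KO Sox2 summit, and the Dppa5a site 660 bp from a KO Sox2 and 661 bp from a WT Oct4 summit.

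By chromosome the density ranged from 0.546 Nanog-only sites per Mb on X to 2.49 on chromosome 11, while the share of KO Nanog sites that were Nanog-only kept between 29.4% on chromosome 5 and 39.9% on chromosome 17 among the autosomes and X. Chromosome 11 was also the densest and X the sparsest of these for the other KO Nanog sites (4.88 and 1.09 per Mb). The median distance to the nearest other KO Nanog site was 39.2 kb, and 1019 sites (27.6%) had one within 10 kb.

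Of the 8 tallest Nanog-only sites outside crowded places and chromosome 18, 5 lay in repeated sequence. The site with 228 reads (chr2:98507317) was in a coding exon of the predicted gene Gm10800, and its central 31 bases occur 28 times in the assembly. The site with 226 reads (chr2:98502802) was in an intron of the neighbouring predicted gene Gm10801. The site with 162 reads (chr13:77578251) was in an intron of 2210408I21Rik, with 47 copies of its central bases. These 3 were also the tallest in Uhrf1 windows, in WT H3K9me3 domains and in WT H3K27me3 domains, and all of them were in WT H3K4me3 domains as well. The next sites in order of height were chr4:145590634 (94 reads, 6 copies), chr9:21573136 in a UTR of Kank2 (50 reads), chr13:74667041 (49 reads, 3 copies), the Spred2 site (45 reads) and chr17:6223425 in an intron of Tulp4 (45 reads, 3 copies). Of these 8 sites, 3 had central bases that occur once, those at Gm10801, Kank2 and Spred2. The Kank2 site lay 141 bp from a KO Sox2 and 171 bp from a WT Oct4 summit, and the Spred2 site 427 and 344 bp.

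Repeated sequence was not more frequent in the class as a whole. The central 31 bases occurred more than once at 407 Nanog-only sites (11.0%, interval 10.04 to 12.1), against 13.7% of all KO Nanog sites, 10.9% of sites with KO Sox2, 19.5% of former Oct4 sites and 14.2% of kept sites. Crowded places held 111 Nanog-only sites. Neighbouring crowded bins were joined into stretches that take in the bins between them, so counts per stretch include sites outside crowded bins. The stretch with the most sites, chr8:19860001-20040000 around the predicted gene Gm15319, had 76 Nanog-only among 107 KO Nanog sites. It also held 81 WT Nanog summits, each over 100 bp from those 76. A stretch on chromosome 6 between Ezh2 and Pdia4 (chr6:47600001-47710000) had 24 among 37 (19 of the 24 in crowded bins), with 39 KO Oct4 and 23 WT Nanog sites.

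Some patterns of letters around the summits differed between Nanog-only sites and the sites that share another factor, and others did not. In windows of 100 bases on either side of the summit, CCATTA was found at 590 of 3696 Nanog-only sites (16.0%, interval 14.8 to 17.2), against 14.1% of all KO Nanog sites and 8.74% of windows sampled along the genome. The share was 4.58 points higher (2.87 to 6.25) than at former Oct4 sites and 2.49 points higher (0.628 to 4.30) than at sites with KO Sox2, and its difference from kept sites (14.8%) was within counting error. Against all other KO Nanog sites, compared within 5 groups of similar height, the share was 3.91 points higher. A second homeodomain pattern, TAATTA, showed no such excess. It was found at 11.0% of Nanog-only sites (all KO Nanog sites 10.6%, genome windows 7.26%), 0.599 points (-0.623 to 1.86) from the other KO Nanog sites. It was 2.54 points higher (0.986 to 4.04) than at sites with KO Sox2, and within counting error of former Oct4 and kept sites.

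Sox-type letters were less frequent than at sites with KO Sox2 and octamer letters less frequent than at former Oct4 sites, in the direction of the factors that the rule excluded. CTTTGT was found at 32.5% of Nanog-only sites (31.03 to 34.05), against 36.5% of all KO Nanog sites, 43.5% at sites with KO Sox2 and 18.04% of genome windows. It differed by -5.22 points (-7.61 to -2.84) from former Oct4 sites and by -1.47 points (-4.08 to 1.11) from kept sites, the latter within counting error. CATTGT was found at 21.7% (all KO Nanog sites 23.4%), a difference of -8.57 points (-10.9 to -6.28) from sites with KO Sox2. Its differences from former Oct4 sites (1.05 points, -1.0005 to 3.07) and from kept sites (-1.01 points, -3.33 to 1.26) were within counting error. The octamer, the binding element of Oct4 and related POU factors, was found at 156 Nanog-only sites (4.22%) against 7.5% of all KO Nanog sites and 15.7% of former Oct4 sites, and it was still above the 1.72% of genome windows. At sites with KO Sox2 it was 3.64%, which differed from the Nanog-only share by less than counting error.

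Among other patterns, CAGCAGG was less and CCAAT more frequent than at the other KO Nanog sites, and AAGGTCA differed from them by less than counting error. Further patterns searched differed from these sites in either direction, such as GGAATG (-3.08 points, -4.47 to -1.65) and GGGCGTG (0.947 points, 0.373 to 1.58). The element AAGGTCA of Esrrb, an orphan nuclear receptor of the pluripotency network, was found at 11.4% of Nanog-only sites (all KO Nanog sites 12%, genome windows 3.77%). Against sites with KO Sox2 alone, the AAGGTCA share differed by -3.39 points (-5.20 to -1.63). The Zic-type letters CAGCAGG were found at 11.4% (all KO Nanog sites 14.3%), a difference of -4.52 points (-5.84 to -3.16) from the other KO Nanog sites. The letters CCAAT, bound by NFY, were found at 28.9% (all KO Nanog sites 25%), 6.03 points higher (4.27 to 7.81) than at the other sites but close to the 29.6% of genome windows. Mean GC content was 46.2% in Nanog-only windows and 47.4% in the others, and the mean number of CpG dinucleotides was 2.39 and 2.40, above the genome's 1.67.

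**Figure D2:**
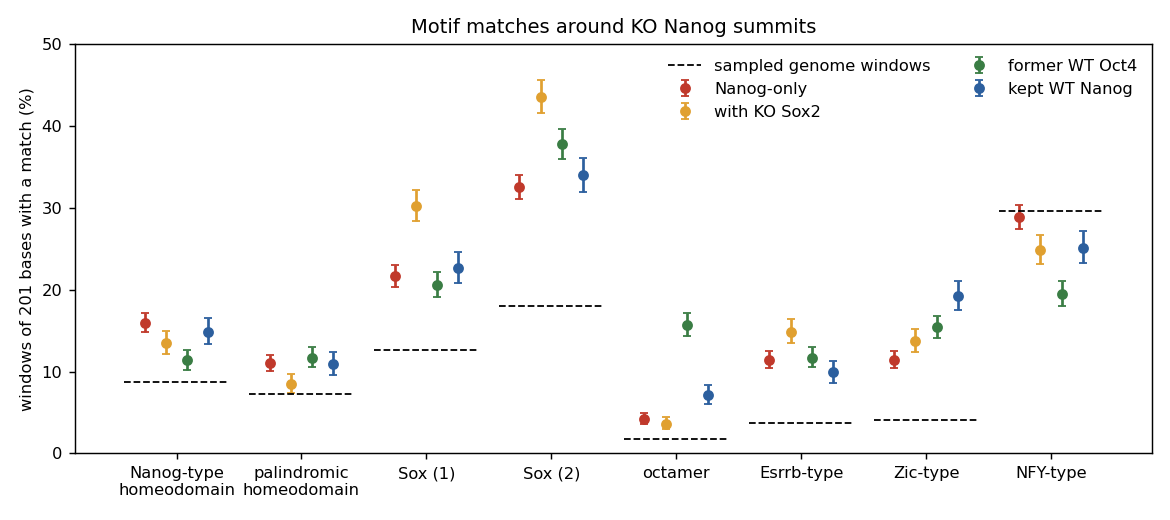
Share of windows of 100 bases on either side of KO Nanog summits with a match to each pattern on either strand (percent, points with 95% Wilson intervals) in the 4 classes, with dashed lines for windows sampled along the genome. Nanog-only sites have the highest point for the Nanog-type pattern (16.0%), within counting error of kept sites, whereas sites with KO Sox2 lead both Sox patterns and former Oct4 sites the octamer.

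Nanog-only sites lay in H3K4me3 domains less often than the other KO Nanog sites. In Uhrf1 KO mESC, 951 of 3697 (25.7%, interval 24.3 to 27.2) were inside an H3K4me3 domain, against 31.1% of all KO Nanog sites and 7.10% of the genome. The share differed by -8.27 points (-10.1 to -6.46) from the other KO Nanog sites, by -11.95 points (-14.5 to -9.38) from kept sites and by -2.81 points (-5.15 to -0.496) from sites with KO Sox2. Within 5 groups of similar height the difference from the other sites was -4.88 points. Over 10 kb from any coding gene start, 16.1% of Nanog-only sites were in KO H3K4me3, against 21.8% of all KO Nanog sites, 19.9% of sites with KO Sox2, 26.9% of former Oct4 sites and 27.97% of kept sites.

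Most of the H3K4me3 domains at Nanog-only sites were already there in WT cells. WT H3K4me3 covered 1025 sites (27.7%, against 36.5% of all KO Nanog sites), and 799 sites (21.6%, against 26.9%) were in domains of both genotypes. WT domains alone held 226 sites (6.11%, against 9.59%) and KO domains alone 152 (4.11%). The share in KO domains alone, 4.24% over all KO Nanog sites, differed by -0.191 points (-0.971 to 0.635) from that of the other sites. Neither genotype had a domain at 2520 sites (68.2%, against 59.3% of all KO Nanog sites), 13.6 points more (11.7 to 15.5) than at the other sites. The tallest sites in KO domains alone were in an intron of Ezr, which links the membrane to actin (40 reads, chr17:6964400), in an intron of Oxr1, an oxidation resistance gene (27 reads, chr15:41283534), and in a UTR of Tigd4 (23 reads, chr3:84399302). The Oxr1 and Tigd4 sites were in H3K27me3 domains of WT mESC, and the Ezr site was in no domain of WT mESC but in H3K4me3 domains of WT EB in weeks 2 and 3.

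Nanog-only sites lay less often in WT H3K9me3 domains than the other KO Nanog sites. WT H3K9me3 domains held 998 sites (26.99%, interval 25.6 to 28.4), against 32.2% of all KO Nanog sites and 37.2% of the genome. The share differed by -8.02 points (-9.83 to -6.18) from the other KO Nanog sites and by -1.93 points from sites with KO Sox2, the latter with an interval (-4.30 to 0.3998) that held 0. In KO mESC, H3K9me3 domains held 42.3% of Nanog-only sites (all KO Nanog sites 49.7%, genome 40.9%), and 809 sites (21.9%, against 24.2%) were in KO but not WT domains, whereas 242 (6.55%, against 6.61%) were in WT domains alone. H3K9me3 domains were longer in KO (median 140 kb) than in WT (37.8 kb). After the Gm10801 site (226 reads) described above, the tallest single-copy sites in WT H3K9me3 domains outside UTRs, crowded places and chromosome 18 were the Spred2 site, chr11:49553436 (41 reads, 27.2 kb upstream of Cnot6) and chr11:34013253 (36 reads, 66.3 kb from Lcp2), named after their values were seen. The last lay 128 bp from a KO Sox2 and 197 bp from a WT Oct4 summit, and the Cnot6 site 1095 bp from a KO Sox2 summit.

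WT H3K27me3 domains held 932 Nanog-only sites (25.2%, interval 23.8 to 26.6), against 26.2% of all KO Nanog sites and 36.1% of the genome. The difference from the other KO Nanog sites was -1.58 points, with an interval (-3.32 to 0.181) that held 0. The direction was not stable. Within height groups the share was 0.629 points higher in Nanog-only sites, a value without an interval. With 1000 bp in the rule it was 1.73 points higher, and the interval (-0.184 to 3.69) held 0. The difference was -4.38 points (-7.02 to -1.60) at or above the list's median height. At or above the WT minimum height it was -2.96 points (-4.93 to -0.946). By class the share was 3.30 points higher (1.08 to 5.48) than at sites with KO Sox2 and differed by -9.40 points (-11.96 to -6.87) from that of kept sites. KO H3K27me3 domains, which numbered 722 against 8161 in WT, held 191 sites (5.17%, against 5.05% of all KO Nanog sites), and 798 of the 932 sites in WT H3K27me3 (21.6% of Nanog-only sites, against 22.5% of all) were in no KO domain. The other 134 (3.62%, against 3.7%) were in domains of both genotypes, and 57 (1.54%, against 1.35%) were in KO domains alone.

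Against the other KO Nanog sites, the combination of marks differed most in its empty state. None of the 3 WT marks was present at 1563 Nanog-only sites (42.3%), against 33.3% of all KO Nanog sites and 18.8% of kept sites. At sites with KO Sox2 the share was 40.2%, a difference of 2.11 points (-0.462 to 4.67) that was within counting error. The difference from the other KO Nanog sites was 13.8 points (11.9 to 15.7), and 9.59 points within groups of similar height. Of these 1563 sites, 109 (6.97%) were in a KO H3K4me3 domain, against 8.86% of the other KO Nanog sites in this state, and 372 (23.8%) in a KO H3K9me3 domain. WT H3K4me3 alone was present at 666 sites (18.01%, against 22.1% of all KO Nanog sites), a difference of -6.27 points (-7.85 to -4.65) from the other KO Nanog sites. A KO H3K4me3 domain covered 546 of the 666 (81.98%) and 75.5% of the other KO Nanog sites in this state. WT H3K27me3 alone was present at 381 sites (10.3%, against 8.66% of all KO Nanog sites), 2.53 points more (1.39 to 3.72) than at the other sites. Of these 381, 11 (2.89%) were in a KO H3K4me3 domain, and 5.44% of the other sites in this state were. Both H3K4me3 and H3K27me3 of WT, the pair of a bivalent state, covered 190 sites (5.14%, against 7.34% of all KO Nanog sites). This share was 5.14% at sites with KO Sox2 too, 8.33% at former Oct4 sites and 12.8% at kept sites.

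**Figure D3:**
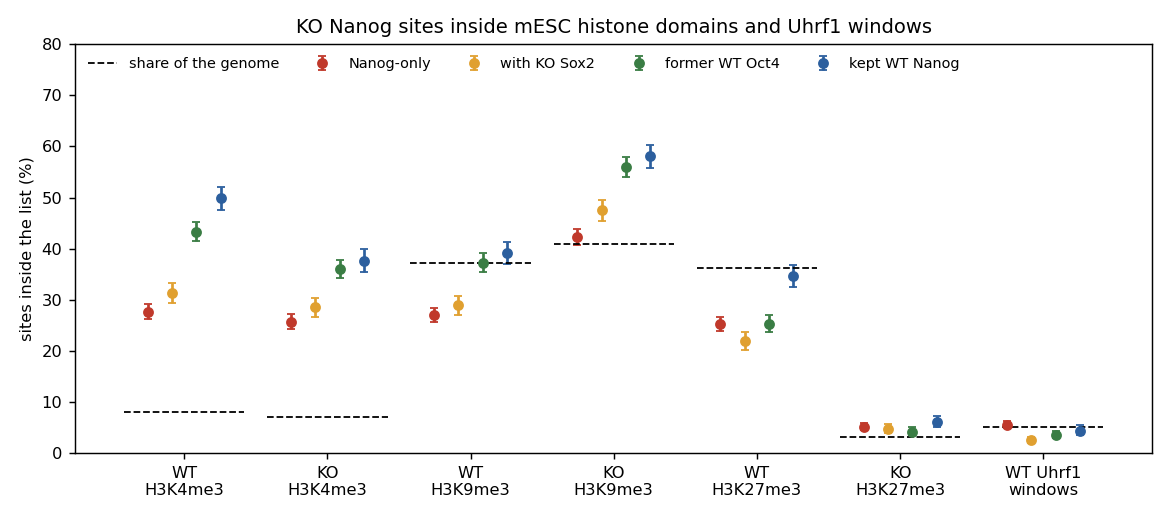
Share of KO Nanog sites on assembled chromosomes inside mESC histone domains and WT Uhrf1 windows (percent, points with 95% Wilson intervals) in the 4 classes, with dashed lines for the share of the genome each list covers. Nanog-only sites have the lowest points for H3K4me3 and H3K9me3 of both genotypes, next to the sites with KO Sox2. They have the highest point for Uhrf1 windows at 5.57%, within counting error of kept sites.

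Uhrf1 windows, stretches of 10 kb enriched for Uhrf1 in WT mESC, held 206 Nanog-only sites (5.57%, interval 4.88 to 6.36), against 4.22% of all KO Nanog sites and 5.14% of the genome. The share was 2.09 points higher (1.25 to 2.97) than at the other KO Nanog sites. Uhrf1 windows held 2.55% of sites with KO Sox2, 3.58% of former Oct4 sites and 4.46% of kept sites. The difference from kept sites (1.11 points, -0.121 to 2.26) was within counting error. Among Nanog-only sites the share was highest at low sites and in repeated sequence. It fell from 8.74% of sites with 5 to 8 reads to 2.19% of sites with 14 to 228 reads. Of the 206 sites, 165 (80.1%, interval 74.1 to 84.98) were in crowded places or had repeated central bases, and of the 239 other KO Nanog sites in Uhrf1 windows 182 (76.2%, 70.4 to 81.1) were. By class the share was 68.97% at sites with KO Sox2, 84.2% at former Oct4 sites and 72.1% at kept sites.

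At single-copy sites outside crowded places 41 of 3285 Nanog-only sites (1.25%, interval 0.921 to 1.69) and 57 of 5809 other sites (0.981%, interval 0.758 to 1.27) were in a Uhrf1 window. At repeated or crowded sites the shares were 40.05% and 17.4%. Without crowded places and unplaced sequence the difference was 0.307 points (-0.381 to 1.05), and with 1000 bp in the rule it was -0.369 points (-1.19 to 0.538). After the Gm10801 site (226 reads), the tallest single-copy sites in Uhrf1 windows outside UTRs, crowded places and chromosome 18, named after their values were seen, were in an intron of Sfi1 (31 reads, chr11:3078044, 115 bp from a WT Nanog summit), 110 kb upstream of Zranb2 (13 reads, chr3:157086644) and 587 kb from the start of Nfib, a gene of the nuclear factor I family (13 reads, chr4:81764332). None of the 3 WT histone marks was present at 156 of the 206 sites (4.22% of Nanog-only sites, against 2.9% of all KO Nanog sites). WT H3K9me3 was present at 39 of the 206 (1.05%, against 1.06%) and WT H3K27me3 at 38 (1.03%, against 0.872%).

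**Figure D4:**
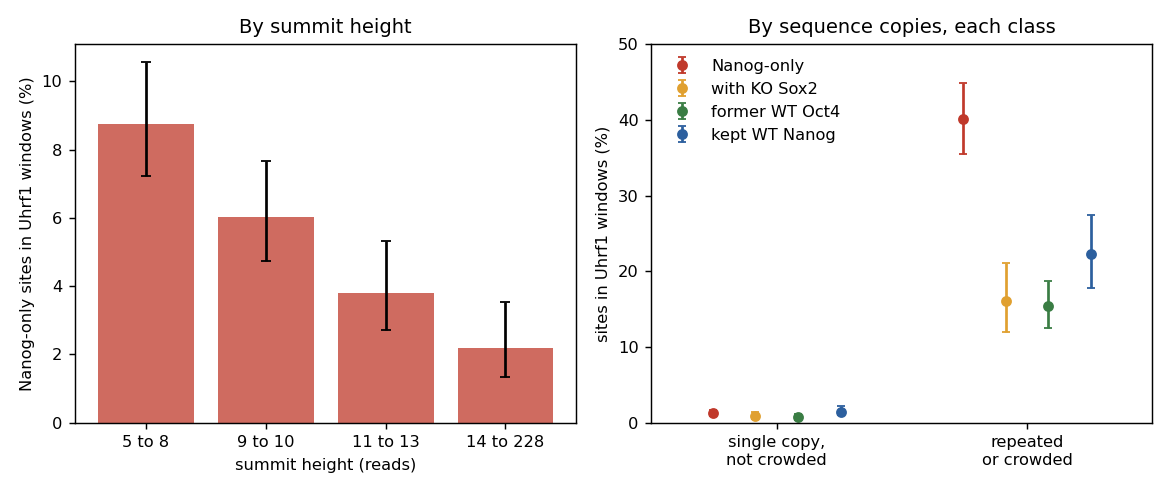
Left, share of Nanog-only sites in WT Uhrf1 windows (percent, 95% Wilson intervals) in 4 groups of summit height (reads); right, the same share in the 4 classes at single-copy sites outside crowded places and at repeated or crowded sites. The share falls from 8.74% to 2.19% with height, and is 1.25% at single-copy sites against 40.05% at repeated or crowded ones.

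In EB the Nanog-only sites kept a share in H3K4me3 above that of the genome. KO H3K4me3 domains held 9.95% of them in week 1, 29.9% in week 2 and 29.7% in week 3 (all KO Nanog sites 10.1%, 36.9% and 38.4%), while the lists covered 2.76%, 5.82% and 6.24% of the genome. In WT EB the shares were 13.5%, 27.7% and 26.9% (all KO Nanog sites 14.8%, 31.2% and 33.3%). Of the 951 sites in KO mESC H3K4me3, 27.8% were in a KO domain in week 1, 73.6% in week 2 and 77.1% in week 3, and of the 2746 sites outside it 3.79%, 14.8% and 13.3%. For the other KO Nanog sites these shares were 22.7%, 77.9% and 83.5% inside KO mESC H3K4me3 and 3.8003%, 21.4% and 22.3% outside it. The week 3 share in KO differed by -13.5 points (-15.3 to -11.6) from that of the other KO Nanog sites, and by -7.43 points within groups of similar height.

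H3K27me3 domains of WT and KO held different shares of Nanog-only sites at each stage, and their lists covered different shares of the genome. In WT they held 25.2% of sites in mESC and 8.63%, 22.5% and 25.1% in weeks 1, 2 and 3 (all KO Nanog sites 9.4%, 26.2% and 26.8% in EB), with 36.1% of the genome covered in mESC and 3.81%, 43.9% and 29.8% in EB. In KO they held 5.17% in mESC and then 12.2%, 20.4% and 15.8% (all KO Nanog sites 12.3%, 20.8% and 16.3%), with 3.17%, 6.78%, 17.6% and 15.8% of the genome covered. In KO EB the Nanog-only share differed from that of the other KO Nanog sites by at most 0.797 points, with intervals that held 0 in each of the 3 weeks.

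**Figure D5:**
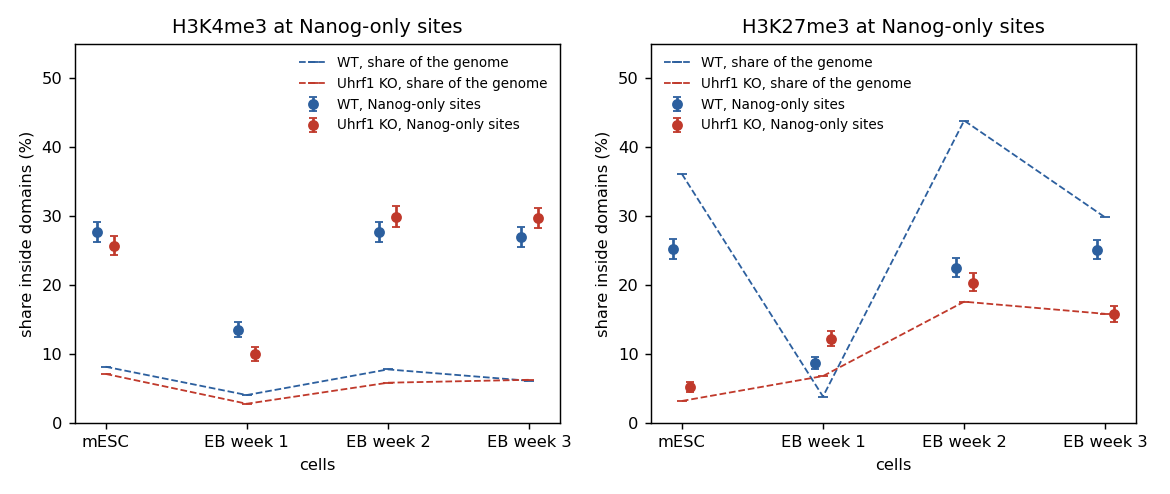
Share of Nanog-only sites inside H3K4me3 (left) and H3K27me3 domains (right) of WT and Uhrf1 KO mESC and EB (percent, points with 95% Wilson intervals), with dashed lines for the share of the genome that each list covers. H3K4me3 points lie above the dashed lines at every stage, and WT H3K27me3 points lie below them in mESC and in weeks 2 and 3.

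The starts of 2835 of 22367 protein-coding genes (12.7%) were the nearest to at least 1 Nanog-only site. Of these genes 2265 had 1 such site and 44 had 4 or more. The gene with the most was Gm15319, with 78 sites (8 outside crowded bins), followed by Ezh2, the catalytic subunit of Polycomb repressive complex, with 14 (heights 7 to 12 reads), and Pdia4, a protein disulfide isomerase of the endoplasmic reticulum, with 12. The sites of Ezh2 and Pdia4 lay 59.3 to 90.7 kb and 47.5 to 75.4 kb from the starts, around the crowded place between both genes. Outside such places Gm15319 and Zfp608, a zinc finger gene, had 8 sites each, followed by Arhgap21 (7 sites, 220 to 483 kb away) and Tle4, a Groucho corepressor (7 sites, the nearest at 2.24 kb). Etaa1, Gm17379, Serp2 and Zfp536 had 5 each.

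Within 10 kb of the start, 909 genes (4.06%) had a Nanog-only site. H3K4me3 of KO mESC covered 74.0% of these starts (71.1 to 76.8), 74.4% of the starts with another KO Nanog site only, and 54.98% of those with none. In WT the shares were 79.1%, 79.3% and 61.3%. Genes near Nanog-only sites thus differed from genes without Nanog nearby, and by less than counting error from genes near the other KO Nanog sites.

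Of 30 core and naive pluripotency genes, 22 had a KO Nanog site of another class within 10 kb (73.3%, against 6.98% of all coding genes). A Nanog-only site lay within 10 kb of 5 (16.7%, against 4.06% of all coding genes). Pou5f1, the gene of Oct4, had 2, the taller 3.08 kb upstream with 14 reads. Dppa5a had 3, the tallest 0.714 kb upstream with 24 reads. Utf1, a chromatin factor of undifferentiated cells, had 1 with 27 reads at 6.84 kb, and Rif1, a regulator of replication timing, 1 with 23 reads at 1.32 kb. Tcl1, a coactivator of Akt, had 1 with 12 reads at 2.37 kb. All 5 tallest sites lay within 1000 bp of a KO Sox2 and a WT Oct4 summit, from 329 to 737 bp, so each stood beside a summit that the rule excluded at 100 bp. H3K4me3 covered the start of each of the 5 in WT and of all but Tcl1 in KO.

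Of 24 Nodal, Bmp, Fgf and Wnt signalling genes, 14 had a KO Nanog site of another class (58.3%, against 6.98% of all coding genes). A Nanog-only site was near 4 of the 24 (16.7%, against 4.06% of all coding genes). Smad7, an inhibitor of Tgf-beta signalling, had the tallest (28 reads, 6.64 kb upstream, with WT Oct4, KO Sox2 and WT Nanog summits at 136, 153 and 235 bp). The ligand genes Bmp4, Nodal and Fgf15 had sites of 15, 10 and 10 reads at 1.11, 1.19 and 5.57 kb. The Bmp4 site lay 105 bp from a KO Sox2 summit, just outside the limit of the rule. The Nodal site lay 651, 703 and 718 bp from KO Sox2, WT Oct4 and WT Nanog summits. At Fgf15 the nearest excluding summit, of KO Sox2, was 3345 bp away. Of 27 germ layer and lineage regulators, 11 had a KO Nanog site of another class (40.7%, against 6.98%). A Nanog-only site was near 2 (7.41%, against 4.06%): Neurog1, a proneural factor (14 reads, 6.13 kb upstream), and Msx2, a homeobox gene (11 reads, in its intron). Both sites lay in WT domains of H3K4me3 and H3K27me3, and the start of Neurog1 was in no H3K4me3 domain of either genotype. The nearest excluding summit was 1005 bp from the Neurog1 site and 4796 bp from the Msx2 site.

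Of 23 genes of the DNA methylation, H3K9 and H3K4 methylation machinery, 7 had a KO Nanog site of another class (30.4%, against 6.98%). A Nanog-only site was near 4 (17.4%, against 4.06%): Ehmt1, an H3K9 methyltransferase (11 reads, 1.44 kb), Setd1b and Rbbp5 of the H3K4 methyltransferase complexes (9 reads at 5.34 kb and 8 reads at 7.08 kb), and Uhrf1 itself (10 reads, 4.93 kb upstream, in an intron of Arrdc5). The Setd1b site lay 228 bp from a WT Oct4 summit. The Rbbp5 site lay 944 to 949 bp from a summit of each excluding list. None of 24 germline genes silenced by methylation and none of 14 genes of the 2-cell stage had a Nanog-only site. Of them, 2 and 1 had a KO Nanog site of another class (8.33% and 7.14%, against 6.98% of all coding genes). These lists are short, and nothing particular to them is drawn from the counts.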

How the data were processed

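The series holds 33 ChIP-seq samples (17 WT, 16 Uhrf1 KO), 25 of them with a called list. The 8 input libraries were not used here. The authors mapped reads to mm9 with Bowtie2 version 2.1.0, keeping 1 alignment per read, so a read from repeated sequence was placed at 1 of its copies. The deposited summits were called per library with MACS, with a signal that gives the reads piled up there, not scaled to depth. The deposited histone domains were called against input with RSEG and carry a mean signal and a domain score, of which the score served only for an alternative. Uhrf1 windows of 10 kb were deposited without a value.

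Sites were placed on the NCBIM37 assembly, the same build as mm9, and its gene annotation with 22367 protein-coding genes. No interval in 523 pairs of list and chromosome passed a chromosome end. A site was inside a domain when its summit base was. Sequence windows held 100 bases on either side of the summit, and every 20th window of the same length along the genome gave the genome share. Copies of the central 31 bases were counted on both strands. Shares have 95% Wilson intervals and differences 95% Newcombe intervals, computed with Python 3.11, numpy 2.4.6, scipy 1.17.1 and matplotlib 3.10.9, and the code was tested on simulated data. Intervals treat sites as independent and cover counting error only. With 1 library per group no test over samples was made.

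The members and gene lists were chosen with earlier results of these data known. The named sites were the 8 tallest outside crowded places and chromosome 18, the 5 tallest within 2 kb of a coding gene start, and the 3 tallest in each of KO-only H3K4me3 domains, Uhrf1 windows, WT H3K9me3 and WT H3K27me3 domains. The named genes were those nearest to the most sites and list members with a site within 10 kb. Single-copy sites, outside UTRs, crowded places and chromosome 18 and without the Gm10801 site, which the height rule already named, were added after the data were seen. Alternatives changed the summit distance, the minimum height, crowded places, copies, domain score, gene distance and height groups.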

Additional observations from a re-analysis of the deposited data

How the results depend on the processing

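No paired analysis was possible because each group has 1 library. For the Nanog-only share and 5 differences from the other KO Nanog sites (near coding gene starts, KO H3K4me3, Uhrf1 windows, WT H3K9me3 and WT H3K27me3), 29 of 48 values under an alternative setting moved little, 15 moved and 4 changed sign, and the causes were not tested. For 8 further differences (WT H3K4me3, KO H3K9me3, no WT mark, KO EB week 3 H3K4me3, and the shares with the Nanog-type core, 1 Sox-type pattern, the octamer and the NFY pattern), 14 of 24 values moved little, 10 moved and 0 changed sign. The Nanog-only share of 35.2% was 30.8% with 200 bp in the rule, 25.7% with 1000 bp, 20.3% among sites at or above the list's median height and 29.9% among sites at or above the WT minimum. With 1000 bp, the difference from the other KO Nanog sites became -2.37 points near coding gene starts, -13.9 for KO H3K4me3, -0.369 for Uhrf1 windows and 1.73 for WT H3K27me3. Within height groups it was -4.88 for KO H3K4me3, 0.758 for Uhrf1 windows and 0.629 for WT H3K27me3. At or above the median height it was -0.0489 for Uhrf1 windows and -4.38 for WT H3K27me3. For Uhrf1 windows it was 0.307 without crowded places and unplaced sequence, 0.367 at single-copy sites and 1.04 at or above the WT minimum height. With domains at or above the median score it was -5.58 for KO H3K4me3 and -5.84 for WT H3K9me3, and at single-copy sites -5.63 for WT H3K9me3. The single-copy and WT minimum settings were chosen after seeing the data. The lower KO H3K4me3 and WT H3K9me3 shares kept their direction in each setting run. The excess in Uhrf1 windows and the direction for WT H3K27me3 did not. Summit heights are unscaled read numbers of libraries of unequal depth, so a site absent from a list may have been below its detection limit.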
